A study of Mus musculus with 12 samples.

Results

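The 10 genes described here carry the interleukin 12 (IL-12) and interleukin 18 (IL-18) signals and were followed through the activation of mouse natural killer (NK) cells. They are the IL-12 receptor genes Il12rb1 and Il12rb2, the IL-18 receptor genes Il18r1 and Il18rap, the kinases Tyk2 and Jak2, the transcription factor Stat4, the adaptor Myd88 and the kinases Irak1 and Irak2. These 10 rows were taken by gene symbol from a table of 55487 features, and all 10 passed a filter on low values that 12364 genes passed. The study had 12 samples in 3 groups of 4. All samples were NK cells of the strain B6.129S4-Ifngtm3.1Lky/J with the genotype mut/mut, in which interferon gamma expression is reported by yellow fluorescence (YFP). All 12 titles, those of the unstimulated samples included, name HD IL-15 without spelling out HD. IL-15 is the cytokine that maintains NK cells, so unstimulated here does not mean free of IL-15. The first group was unstimulated. The other 2 had received an antibody against the activating receptor NK1.1 for 6 h and were sorted into cells without reporter signal (YFP-) and cells with it (YFP+). The labels give no time for the unstimulated group. In comparisons with that group, time in culture cannot be told apart from the stimulus. Samples in each group have the labels f2, m2, m3 and m4. The labels do not say whether equal names mean the same mouse, nor whether samples came from separate mice, so the p-values measure only the spread between these samples. No mouse age is given in the sources used here. The reporter is read out as interferon gamma expression, so the YFP+ and YFP- groups were separated by that outcome.

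IL-12 is made by dendritic cells and macrophages and binds a receptor of the chains IL-12Rβ1 and IL-12Rβ2. These chains hold the kinases TYK2 and JAK2, which phosphorylate STAT4, and STAT4 then enters the nucleus. IL-18 binds the chain encoded by Il18r1 and recruits the accessory chain encoded by Il18rap. That complex calls in MYD88 and the IRAK kinases, which lead through TRAF6 to NF-kappaB and the p38 kinases. In NK cells the 2 cytokines act together as a strong stimulus for interferon gamma. Here neither cytokine was named as a treatment, and the receptor pathway was read at the level of RNA during a stimulus through NK1.1.

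The 12 libraries held between 32.1 and 54.2 M (mega) reads, and 3 reads, the floor used here, corresponded to 0.0553 to 0.0933 CPM (reads per M reads of the library). The lowest count of any of the 10 genes in any library was 111 reads, for Stat4 in YFP+ m3. NK cell markers were abundant, with a summed level over 10 genes of 13761 to 16449 CPM in unstimulated, 9658 to 12193 CPM in YFP- and 10192 to 14113 CPM in YFP+ libraries. Gzma, Nkg7 and Prf1 made up most of that sum. Against unstimulated cells 7 of the 10 fell and 1 rose in each stimulated group, while 20.9% of all genes tested fell in YFP- and 33.3% in YFP+. In YFP+ against YFP- 5 were lower and 1 higher, while 18.5% of all genes tested were lower. Klrb1c, the gene of NK1.1, stood at 290 to 327, 57.6 to 86.6 and 3.70 to 8.97 CPM in unstimulated, YFP- and YFP+ libraries. Summed T cell markers (7 genes, 3 tested) ran from 31.6 to 106 CPM over all libraries, nearly all from Cd3g, Cd3d and Cd6, and Cd4 and Cd8b1 had at most 7 reads in any library. B cell markers (6 genes, 1 tested) summed to 0.663 to 4.38 CPM, and Ms4a1 and Pax5 had at most 2 reads in any library. Myeloid markers (9 genes, 3 tested) summed to 88.9 to 107 CPM in unstimulated, 61.3 to 92.1 CPM in YFP- and 34.4 to 45.9 CPM in YFP+ libraries. That sum rested on Cd68 and Itgax, while Adgre1, S100a8 and S100a9 had at most 3 reads in any library. The myeloid sum thus fell along with the genes that were lower in YFP+, and its part in their results was not tested. The YFP+ libraries divided by label: deviations from the group mean across genes correlated at 0.28 between f2 and m2, at 0.07 between m3 and m4, and between -0.72 and -0.48 across these pairs. Deviations from the mean of a few samples tend to correlate negatively, and in the other 2 groups every pair of libraries lay between -0.44 and -0.19. Ribosomal RNA-like features took 13.7% and 16.3% of reads in YFP+ f2 and m2, against 29.8% and 23.1% in m3 and m4. In the YFP- group the same shares were 18.7% and 15.9% against 30.3% and 20.0%. Where a call of one of the 10 genes depends on this split, its values are given for both pairs of labels.

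The receptor and signalling genes were mostly lower in reporter-positive cells. In YFP+ against unstimulated cells, 7 of the 10 genes fell and 1 rose, and 2 did not pass the test (limma with Benjamini-Hochberg adjustment over all 12364 genes, threshold 0.05). Il12rb1, Il12rb2, Il18r1, Il18rap, Stat4, Irak1 and Irak2 fell, and Jak2 rose. Of all genes tested, 33.3% fell and 27.5% rose in this comparison. The median log2 difference was -0.82 over the 10 genes and -0.03 over all genes tested. Values of the 2 groups did not overlap for 6 of the 10 genes, against 54.7% of all genes tested. In YFP- against unstimulated cells the picture was mixed: Jak2 and Tyk2 rose, Il18r1 and Irak2 fell, and 6 genes did not pass. The background was 30.2% of genes rising and 20.9% falling, and the medians were -0.11 over the 10 genes and 0.14 over all. Here 3 of the 10 genes had values that did not overlap, against 52.7% of genes tested. These shares are near or below the background.

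Among stimulated cells, 6 of the 10 genes were lower in YFP+ than in YFP- cells and none was higher. Il12rb2, Il18r1, Il18rap, Stat4, Tyk2 and Irak2 were the 6, while 18.5% of all genes tested were lower and 3.28% higher. At an unadjusted limma p under 0.05 the counts were 7 lower and 0 higher. The shares of all genes just given are for the adjusted threshold, and none is given for the unadjusted one. All 10 estimates were below 0, although those of Il12rb1 and Jak2 were 0.08 and 0.14 once each library was centred on its median. The 10 had a median of -0.54 against -0.19 over all genes tested. Values did not overlap for 6 of the 10 genes, against 22.1% of all genes tested. The median of all genes is not a fixed reference, since the 18 alternative settings placed it between -0.20 and 0.07 in this comparison, between -0.22 and 0.10 for YFP+ against unstimulated and between -0.05 and 0.21 for YFP- against unstimulated. The 3 comparisons share groups: the unstimulated samples serve in 2 of them, as do the YFP- and the YFP+ samples. In bulk RNA, fewer cells carrying a transcript and less of it per cell cannot be told apart.

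**Figure D1:**
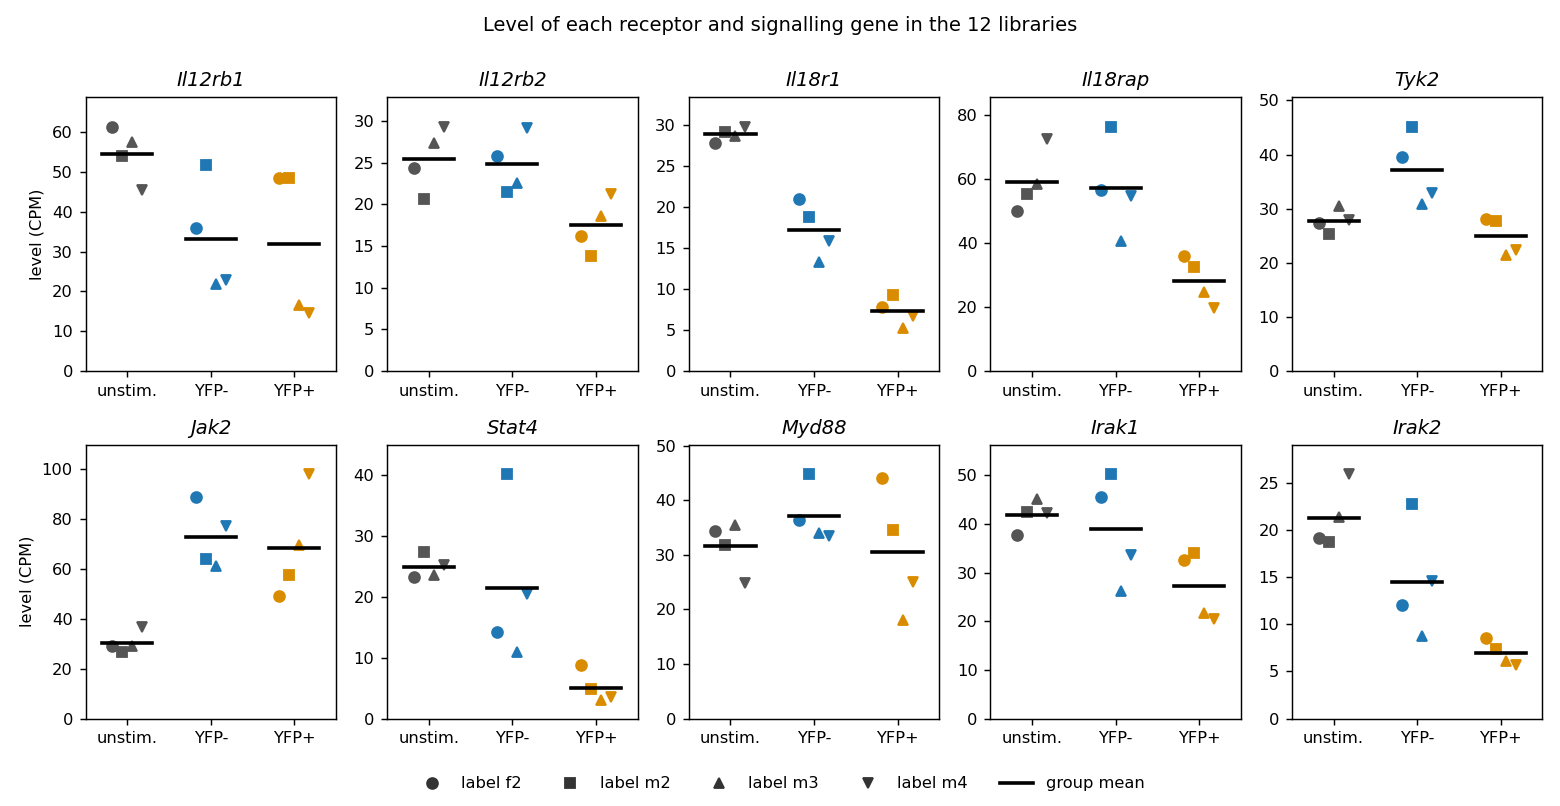
Level of each gene in CPM (vertical axes, from 0) in the 12 libraries, by group (horizontal axes), with 1 symbol per library label and a bar at the mean of each group of 4. Il18r1 is ordered unstimulated, YFP-, YFP+ with no overlap, Jak2 is higher in both stimulated groups, and Il12rb1 separates by label within the stimulated groups.

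**Figure D2:**
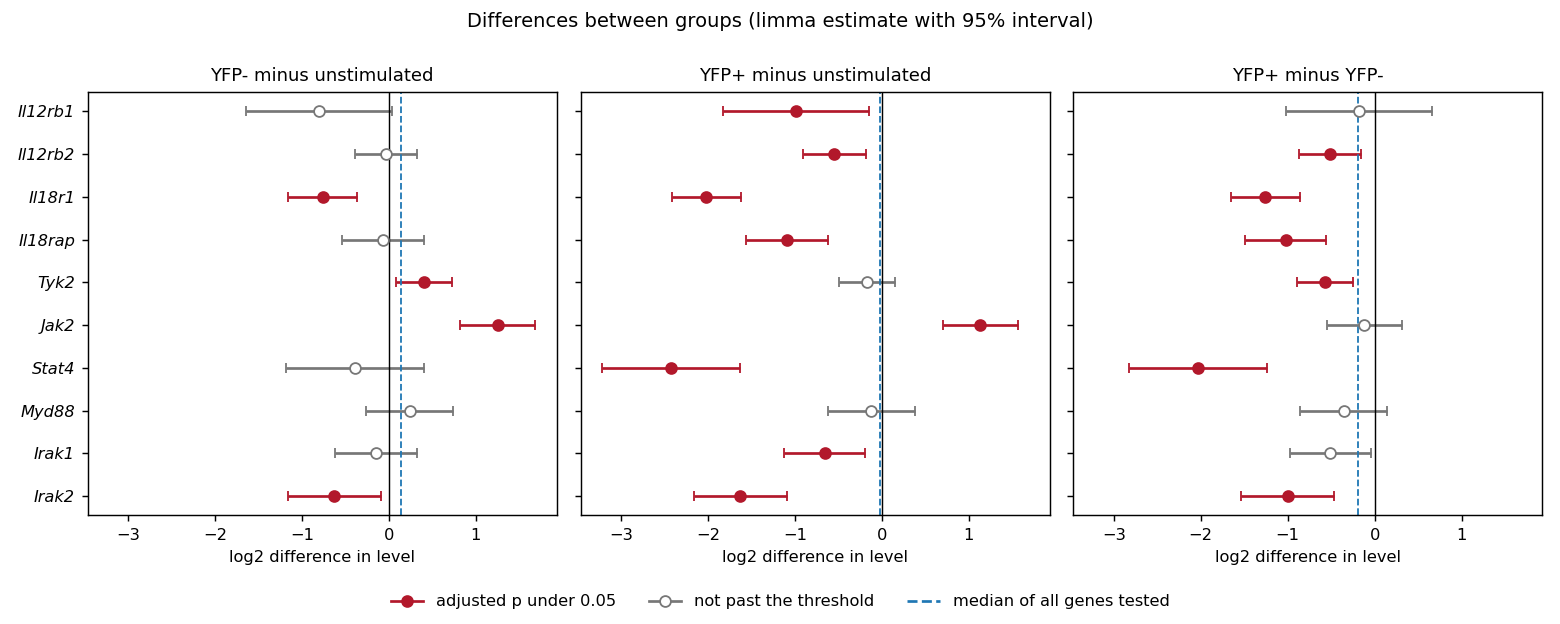
Difference between groups in log2 level (horizontal axes) for each gene in the 3 comparisons, as the limma estimate with its 95% interval, filled where the adjusted p is under 0.05. The dashed line is the median of all 12364 genes tested; in YFP+ minus YFP- all 10 estimates lie below 0, those of Il12rb1 and Jak2 not under every scaling.

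The clearest receptor change was in Il18r1, the chain that binds IL-18 (chromosome 1, 40465552 to 40500854, plus strand, GRCm38; exons of 4817 bases in all). Its level was 27.8, 29.2, 28.7 and 29.8 CPM in unstimulated f2, m2, m3 and m4. In the YFP- libraries it was 20.99, 18.8, 13.4 and 15.9 CPM. In the YFP+ libraries it was 7.81, 9.35, 5.28 and 6.69 CPM. The groups did not overlap in any pairing, and every unstimulated library was above every stimulated one. The log2 difference was -0.76 ± 0.18 (SE, n = 4 per group) for YFP- minus unstimulated (limma adjusted p = 0.0036) and -2.02 ± 0.18 for YFP+ minus unstimulated (limma adjusted p = 6.0e-07), a fold of 4.05. Between the stimulated groups it was -1.26 ± 0.18 (limma adjusted p = 3.4e-04). All 3 calls held under 18 of 18 alternative settings, with YFP+ minus unstimulated between -2.30 and -1.74.

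Il18rap, the accessory chain needed for IL-18 signalling, lies downstream of Il18r1 on the same strand (chromosome 1, 40515362 to 40551705). Unstimulated libraries had 49.8, 55.2, 58.3 and 72.4 CPM in the order f2, m2, m3, m4, and YFP- libraries had 56.6, 76.3, 40.7 and 54.7 CPM. YFP+ libraries had 36.0, 32.4, 24.7 and 19.7 CPM. The unstimulated and YFP- ranges overlapped, and every YFP+ library was below all others. YFP- minus unstimulated was -0.07 ± 0.22 (SE, 95% interval -0.53 to 0.40, limma adjusted p = 0.82), which did not pass. YFP+ was lower by -1.09 ± 0.22 against unstimulated (limma adjusted p = 6.4e-04) and by -1.02 ± 0.22 against YFP- (limma adjusted p = 0.0044), a fold of 2.13 and 2.03. With labels f2 and m2 alone the first of these was -0.62, and with m3 and m4 alone -1.56, both past the threshold.

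The 300-base promoter windows of the 2 IL-18 receptor genes are shown because these neighbours both had their lowest levels in YFP+ cells. The sequences are RefSeq's for GRCm38.p6, 250 bases before to 50 after the annotated start, 5′ to 3′ on the gene's strand. Capitals, where present in this and later windows, mark a match to a STAT motif (TTCNNNGAA) or a GC box (GGGCGG), searched on both strands. Neither window held a match to these or to an AP-1 (TGANTCA) or T-box (AGGTGTGA) motif. Of 32851 promoter windows in the table, 8.30% held the STAT motif, 35.7% the GC box, 7.81% the AP-1 motif and 1.28% the T-box motif.
Il18r1, chr1:40465302-40465601, plus strand: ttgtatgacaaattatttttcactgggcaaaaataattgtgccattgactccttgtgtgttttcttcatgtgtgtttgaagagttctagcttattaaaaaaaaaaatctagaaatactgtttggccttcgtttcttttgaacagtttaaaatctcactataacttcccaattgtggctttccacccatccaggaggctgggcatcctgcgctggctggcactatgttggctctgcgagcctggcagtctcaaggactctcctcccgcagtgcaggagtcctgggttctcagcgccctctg
Il18rap, chr1:40515112-40515411, plus strand: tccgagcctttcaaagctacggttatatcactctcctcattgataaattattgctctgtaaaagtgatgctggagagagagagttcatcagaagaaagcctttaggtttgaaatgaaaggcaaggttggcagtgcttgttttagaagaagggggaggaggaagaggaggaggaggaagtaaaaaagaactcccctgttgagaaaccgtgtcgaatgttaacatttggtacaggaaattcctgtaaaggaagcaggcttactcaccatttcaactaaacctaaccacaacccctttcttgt
RefSeq lists 3 start sites for Il18r1, and the most downstream window, chr1:40465756-40466055, held 2 STAT matches.

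The balance of the IL-18 receptor chains, compared per kilobase (kb) of exon within each library, shifted toward Il18rap. On that scale, the log2 ratio of Il18rap to Il18r1 lay between 0.36 and 0.79 in unstimulated libraries, 0.94 and 1.53 in YFP- libraries, and 1.07 and 1.74 in YFP+ libraries. All 8 stimulated libraries were above all 4 unstimulated ones, while the stimulated groups overlapped. This is a description within libraries, which does not depend on library scaling, and it was not tested.

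**Figure D3:**
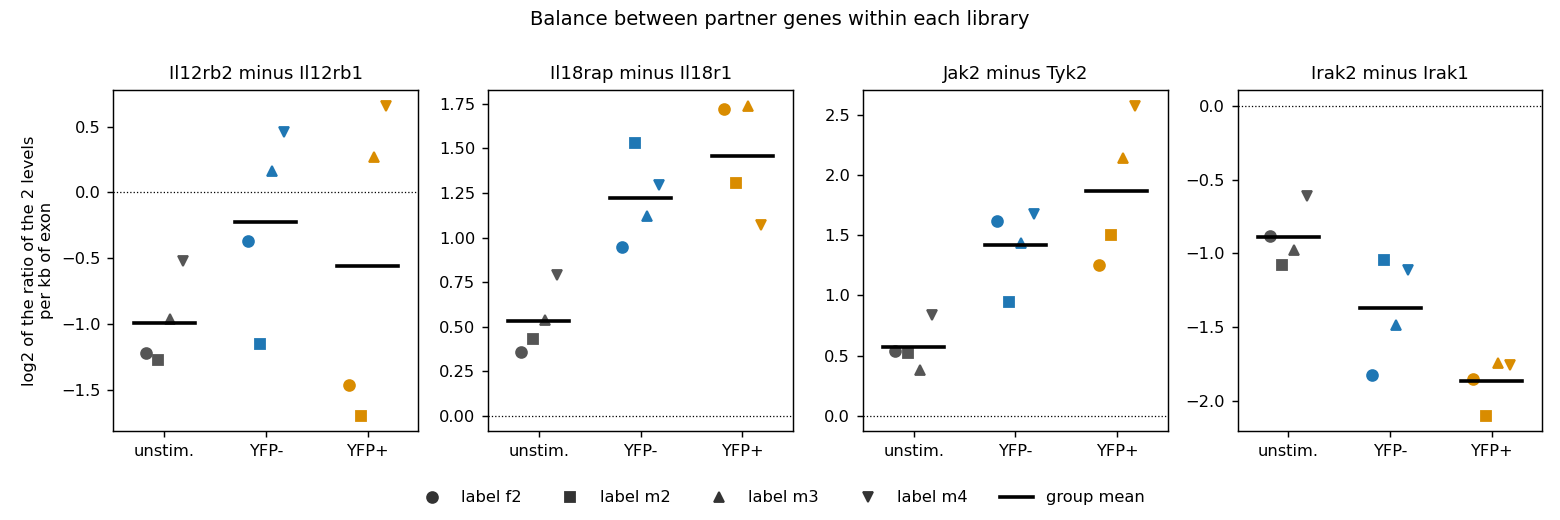
Log2 of the ratio of 2 levels per kilobase of exon (vertical axes) within each library, by group, for 4 pairs of partner genes, with a bar at the mean of each group of 4 and a dotted line at equal levels. Il18rap to Il18r1 and Jak2 to Tyk2 are higher in all 8 stimulated libraries than in the unstimulated ones, and Il12rb2 to Il12rb1 splits by label in the YFP+ group. The level of Il12rb2 per kb carries the limit of its overlap with Serbp1, described below.

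Il12rb2, the chain of the IL-12 receptor that docks STAT4 (chromosome 6, 67291318 to 67376188, minus strand), had 24.4, 20.6, 27.3 and 29.3 CPM in unstimulated libraries. The YFP- libraries had 25.8, 21.5, 22.6 and 29.2 CPM and the YFP+ libraries 16.2, 13.8, 18.6 and 21.2 CPM. YFP+ values overlapped the unstimulated ones through unstimulated m2 alone and lay just below the lowest YFP- value. The log2 difference was -0.03 ± 0.17 for YFP- minus unstimulated (SE, limma adjusted p = 0.88) and -0.54 ± 0.17 for YFP+ minus unstimulated (limma adjusted p = 0.011). YFP+ minus YFP- was -0.51 ± 0.17 (limma adjusted p = 0.042), a call that 14 of 18 alternatives ended. Without f2 the difference from unstimulated was -0.53 with a limma adjusted p of 0.056, and it was -0.58 with labels f2 and m2 alone (limma adjusted p = 0.018) and -0.51 with m3 and m4 alone (limma adjusted p = 0.064). Against YFP- the same pairs of labels gave -0.65 and -0.37. A limit on this gene is that 1519 of its exon bases (40.0%) are shared with Serbp1 on the other strand, and whether reads were counted by strand is not given in the sources used here. Serbp1 stood at 253 to 345 CPM in unstimulated, 387 to 503 CPM in YFP- and 351 to 471 CPM in YFP+ libraries, so reads of Serbp1 counted here cannot be told apart from those of Il12rb2. The log2 differences of Serbp1 against unstimulated were 0.57 (limma adjusted p = 0.0025) in YFP- and 0.47 (limma adjusted p = 0.0068) in YFP+, above 0 where those of Il12rb2 were below. For YFP+ minus YFP- Serbp1 was at -0.10 (limma adjusted p = 0.61), below 0 as Il12rb2 was. The part of Serbp1 reads in the results of Il12rb2 was not tested.

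The promoter window of Il12rb2 is shown because it held 1 STAT match, in a gene whose receptor acts through STAT4. The match is a description of the letters and not a binding site.
Il12rb2, chr6:67376139-67376438, minus strand: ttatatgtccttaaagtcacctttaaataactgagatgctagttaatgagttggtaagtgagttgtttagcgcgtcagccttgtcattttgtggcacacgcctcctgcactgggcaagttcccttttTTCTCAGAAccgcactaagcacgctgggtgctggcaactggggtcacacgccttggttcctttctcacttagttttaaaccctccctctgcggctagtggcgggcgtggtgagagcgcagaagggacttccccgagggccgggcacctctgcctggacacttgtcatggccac

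Il12rb1, the chain shared by the IL-12 and IL-23 receptors (chromosome 8, 70808449 to 70821424, plus strand), had the widest spread in log2 level of the 4 receptor genes in both stimulated groups (SD 0.59 in YFP- and 0.95 in YFP+). Unstimulated libraries had 61.4, 53.9, 57.5 and 45.5 CPM in the order f2, m2, m3, m4. YFP- libraries had 36.0, 51.7, 21.8 and 23.0 CPM, and YFP+ libraries had 48.4, 48.5, 16.7 and 14.6 CPM. In both stimulated groups m3 and m4 were below f2 and m2, by at least 0.64 in log2 level in YFP- and 1.54 in YFP+, and in the YFP+ group this put 468 to 603 reads against 2370 to 2632. The log2 difference was -0.80 ± 0.39 for YFP- minus unstimulated (SE, limma adjusted p = 0.10), -0.98 ± 0.39 for YFP+ minus unstimulated (limma adjusted p = 0.042) and -0.18 ± 0.39 for YFP+ minus YFP- (limma adjusted p = 0.78). With labels f2 and m2 alone YFP+ minus unstimulated was -0.25 (limma adjusted p = 0.25), and with m3 and m4 alone it was -1.72 (limma adjusted p = 2.7e-04). Leaving out m3 gave -0.71 (limma adjusted p = 0.18), and leaving out m4 gave -0.76 (limma adjusted p = 0.15). The YFP- difference was -0.42 with f2 and m2 alone and -1.19 with m3 and m4 alone, where it passed the threshold (limma adjusted p = 0.0030). The longest transcript of Il12rb1 is rich in G and C (58.4%, against a median of 49.5% of genes tested). After a correction of each library for GC content and length, the YFP- difference was -0.87 and passed (limma adjusted p = 0.016), and the YFP+ difference was -0.70 (limma adjusted p = 0.038). The YFP- difference passed in 8 of 18 alternatives. Quantile normalization (limma adjusted p = 0.010) and centring on the median (limma adjusted p = 0.025) were among them. The call for YFP+ minus unstimulated held under 11 of 18.

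The split between labels reached 6 of the 10 genes. Il12rb1, Il18r1, Il18rap, Tyk2, Myd88 and Irak1 had m3 and m4 below both f2 and m2 in both stimulated groups, a pattern looked for after Il12rb1 had been seen and present in 23.3% of genes tested. A gap of at least 0.5 in log2 level in both groups was seen in 111 genes (0.898%), among the 10 only in Il12rb1. The ribosomal RNA-like share was also higher in m3 and m4 in these groups, and its part in the pattern was not tested. Per kb, Il12rb1 was above Il12rb2 in all 4 unstimulated libraries, with a log2 ratio of Il12rb2 to Il12rb1 of -1.27 to -0.52. In the stimulated groups the ratio ran from -1.15 to 0.46 in YFP- and from -1.70 to 0.66 in YFP+, and it was above 0 in m3 and m4 of both groups. Since 40.0% of the exon bases of Il12rb2 are shared with Serbp1, these ratios and their sign depend on how reads there were counted, which was not tested.

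Jak2, the kinase held by IL-12Rβ2, was the gene of the 10 that rose most (chromosome 19, 29251828 to 29313080, plus strand). It stood at 29.1, 26.5, 29.0 and 36.7 CPM in unstimulated, 88.8, 63.7, 61.0 and 77.1 CPM in YFP- and 49.1, 57.4, 69.3 and 97.8 CPM in YFP+ libraries. All 8 stimulated libraries were above all unstimulated ones, and the stimulated groups overlapped. The log2 difference was 1.25 ± 0.20 for YFP- (SE, limma adjusted p = 1.8e-04) and 1.13 ± 0.20 for YFP+ (limma adjusted p = 2.4e-04), a fold of 2.38 and 2.19. Both calls held under 18 of 18 alternatives. YFP+ minus YFP- was -0.12 ± 0.20 with a 95% interval of -0.55 to 0.31 (limma adjusted p = 0.71), and it was -0.50 with labels f2 and m2 and 0.26 with m3 and m4. Jak2 also serves receptors other than that for IL-12.

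Its promoter window is shown as that of the only gene of the 10 that rose in YFP+ cells, and it held 3 GC boxes and 81.0% G and C.
Jak2, chr19:29251553-29251852, plus strand: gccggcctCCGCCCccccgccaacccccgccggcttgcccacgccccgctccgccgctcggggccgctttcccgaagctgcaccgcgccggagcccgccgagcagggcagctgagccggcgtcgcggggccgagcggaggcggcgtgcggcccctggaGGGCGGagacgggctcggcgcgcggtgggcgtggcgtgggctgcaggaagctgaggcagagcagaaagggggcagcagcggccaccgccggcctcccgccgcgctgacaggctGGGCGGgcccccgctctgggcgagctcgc

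Tyk2, the kinase held by IL-12Rβ1 (chromosome 9, 21104068 to 21131243, minus strand), was highest in YFP- cells. Unstimulated libraries had 27.4, 25.3, 30.4 and 28.0 CPM, YFP- libraries 39.5, 45.2, 30.8 and 32.8 CPM and YFP+ libraries 28.2, 27.7, 21.4 and 22.4 CPM. The lowest YFP- library, m3, was just above the highest value of either other group. The log2 difference was 0.40 ± 0.15 for YFP- minus unstimulated (SE, limma adjusted p = 0.037), -0.17 ± 0.15 for YFP+ minus unstimulated (limma adjusted p = 0.36) and -0.57 ± 0.15 for YFP+ minus YFP- (limma adjusted p = 0.015). The first and the last of these calls were lost in 9 and in 10 of 18 alternatives. The sign of YFP+ minus unstimulated depended on the processing. It was 0.24 after the GC and length correction (limma adjusted p = 0.051). With ribosomal RNA-like features left out of the totals it was -0.36 and passed (limma adjusted p = 0.019). With labels m3 and m4 alone the YFP- rise was 0.12 (limma adjusted p = 0.60), against 0.68 with f2 and m2 (limma adjusted p = 0.0036). YFP+ minus YFP- was -0.54 with m3 and m4 (limma adjusted p = 0.070) and -0.60 with f2 and m2 (limma adjusted p = 0.018). Per kb, Jak2 exceeded Tyk2 in every library, by a log2 ratio of 0.38 to 0.84 (unstimulated), 0.94 to 1.68 (YFP-) or 1.25 to 2.58 (YFP+). Their longest transcripts differ in G and C (44.3% for Jak2, 57.0% for Tyk2), and the part of this in the ratios was not tested.

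Stat4, the transcription factor that carries the IL-12 signal, had the largest fall of the 10 genes (chromosome 1, 51987148 to 52107189, plus strand). Its level was 23.3, 27.3, 23.6 and 25.2 CPM in unstimulated libraries and 14.2, 40.2, 10.9 and 20.49 CPM in YFP- libraries. In YFP+ libraries it was 8.73, 4.83, 3.07 and 3.52 CPM. All YFP+ libraries were below all others, while the YFP- libraries lay on both sides of the unstimulated range, with m2 far above and m3 far below. YFP+ was lower by -2.42 ± 0.37 against unstimulated (SE, limma adjusted p = 6.8e-05), a fold of 5.36, and by -2.03 ± 0.37 against YFP- (limma adjusted p = 0.0016), a fold of 4.09. Both held under 18 of 18 alternatives, the first between -2.89 and -1.96. YFP- minus unstimulated was -0.39 ± 0.37 with a 95% interval of -1.19 to 0.40 (limma adjusted p = 0.40). That value was -0.15 without m3 and -0.71 without m2, and after the correction for GC content and length it was -0.76 and passed (limma adjusted p = 0.034). The exons of Stat4 share 1033 bases (26.7%) with the predicted gene Gm28177 on the same strand, which was listed at 0.122 CPM or less in every library. How reads in the shared bases were counted is not given in the sources used here. If they were left out, the level of Stat4 per kb would be too low, which was not tested.

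Its promoter window is shown because Stat4 fell most, and it held no match to the 4 motifs searched. RefSeq gives a further start for Stat4 inside the gene, whose window held none either.
Stat4, chr1:51986898-51987197, plus strand: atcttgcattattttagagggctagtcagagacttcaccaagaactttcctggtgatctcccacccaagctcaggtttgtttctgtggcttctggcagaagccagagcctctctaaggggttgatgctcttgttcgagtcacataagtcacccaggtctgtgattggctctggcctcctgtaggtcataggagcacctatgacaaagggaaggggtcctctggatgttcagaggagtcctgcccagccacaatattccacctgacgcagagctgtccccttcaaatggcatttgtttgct

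Myd88, the adaptor of the IL-18 receptor and of most Toll-like receptors (chromosome 9, 119335934 to 119341411, minus strand), did not pass in any comparison. It stood at 34.4, 31.8, 35.5 and 24.8 CPM in unstimulated, 36.5, 44.8, 34.1 and 33.5 CPM in YFP- and 44.1, 34.6, 18.1 and 25.1 CPM in YFP+ libraries. The 3 groups overlapped, and the widest range was in YFP+, where f2 was highest and m3 lowest. The log2 differences were 0.24 ± 0.23 (SE, 95% interval -0.26 to 0.74), -0.12 ± 0.23 (-0.62 to 0.38) and -0.36 ± 0.23 (-0.86 to 0.14) for YFP- minus unstimulated, YFP+ minus unstimulated and YFP+ minus YFP-. Its exons share 290 bases (11.3%) with Acaa1a on the other strand, which stood at 66.9 to 73.0 CPM in unstimulated and 23.3 to 43.7 CPM in YFP+ libraries.

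Irak1, which is recruited by MYD88 (chromosome X, 74013914 to 74023918, minus strand), stood at 37.7, 42.4, 45.1 and 42.4 CPM in unstimulated libraries. YFP- libraries had 45.5, 50.3, 26.2 and 33.6 CPM, and YFP+ libraries had 32.7, 34.0, 21.7 and 20.4 CPM. Every YFP+ library was below every unstimulated one, by -0.66 ± 0.22 on average in log2 level (SE, limma adjusted p = 0.018), and YFP- spanned both. Without m3 that difference was -0.53 (limma adjusted p = 0.056), without m4 it was -0.53 (limma adjusted p = 0.12), and it was -0.26 with labels f2 and m2 alone (limma adjusted p = 0.12) and -1.05 with m3 and m4 alone (limma adjusted p = 0.0025). YFP- minus unstimulated was -0.15 ± 0.22 (limma adjusted p = 0.59). YFP+ minus YFP- was -0.51 ± 0.22 (limma adjusted p = 0.11), and it was -0.52 with f2 and m2 alone, where it passed (limma adjusted p = 0.026), and -0.50 with m3 and m4 alone (limma adjusted p = 0.11).

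Irak2, a kinase of the same complex known for sustaining late Toll-like receptor signals (chromosome 6, 113638467 to 113695026, plus strand), was ordered as Il18r1 was in its means. Unstimulated libraries had 19.1, 18.8, 21.4 and 26.0 CPM, YFP- libraries 12.0, 22.8, 8.78 and 14.6 CPM, and YFP+ libraries 8.50, 7.43, 6.08 and 5.66 CPM. All YFP+ libraries were below all others, and in YFP- only m2 reached the unstimulated range. YFP+ minus unstimulated was -1.63 ± 0.25 (SE, limma adjusted p = 6.6e-05), a fold of 3.09, and this held under 18 of 18 alternatives. YFP+ minus YFP- was -1.001 ± 0.248 (limma adjusted p = 0.011), and it was -0.80 without m2 (limma adjusted p = 0.054) and -0.88 without m4 (limma adjusted p = 0.090). YFP- minus unstimulated was -0.63 ± 0.25 (limma adjusted p = 0.048), with 3 of 4 labels lower. That call was lost without f2, without m3 and without m4, at -0.61, -0.41 and -0.56, and it was -0.20 with labels f2 and m2 alone against -1.06 with m3 and m4 alone. Per kb, Irak2 was below Irak1 in every library, by a log2 ratio of -1.08 to -0.61 (unstimulated), -1.83 to -1.05 (YFP-) or -2.10 to -1.74 (YFP+), and no YFP+ value overlapped an unstimulated one.

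The order of the 10 genes in CPM per kb of exon differed between the groups. In unstimulated cells the means ran from Il12rb1 at 13.3 and Myd88 at 12.3, through Irak1 at 8.88, Il18rap at 8.73, Il12rb2 at 6.70, Stat4 at 6.42, Jak2 at 6.03 and Il18r1 at 5.99, to Irak2 at 4.83 and Tyk2 at 4.05. Only Myd88 and Irak1, among neighbours in that order, had ranges that did not overlap. In YFP- cells Myd88 and Jak2 led at 14.4 each, followed by Il18rap at 8.46, Irak1 at 8.25, Il12rb1 at 8.07, Il12rb2 at 6.53, Stat4 at 5.54, Tyk2 at 5.40, Il18r1 at 3.59 and Irak2 at 3.29. The steps from Jak2 to Il18rap and from Tyk2 to Il18r1 were the ones without overlap. In YFP+ cells Jak2 led at 13.6, then Myd88 at 11.8, Il12rb1 at 7.81, Irak1 at 5.77, Il12rb2 at 4.61, Il18rap at 4.18 and Tyk2 at 3.63. Irak2 at 1.57, Il18r1 at 1.51 and Stat4 at 1.30 formed a low group, separated from Tyk2 without overlap. Stat4 thus moved from the sixth to the last place in mean level per kb, but these places were not clear of their neighbours. Its range overlapped those of Il12rb2 and Jak2 in unstimulated cells and that of Il18r1 in YFP+ cells. The exon bases that Stat4 shares with Gm28177 and Il12rb2 shares with Serbp1 are a further limit on their places.

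The other genes of the pathway were read from 4 lists. Their counts stand beside the shares of all genes tested: 30.2% rose and 20.9% fell in YFP-, 27.5% rose and 33.3% fell in YFP+, and 3.28% were higher and 18.5% lower in YFP+ than in YFP-. These shares are for the adjusted threshold, so they are no background for the list counts at an unadjusted p. Of 18 further genes listed for the IL-12 receptor arm (ligand subunits, JAK and STAT family members and their inhibitors) 15 were tested. The list also holds genes of other cytokine receptors, such as Jak3, Stat5a and Cish, so its counts and medians are not particular to IL-12. The ligand genes Il12a and Il12b and the receptor gene Il23r were below the filter, Il12b with at most 3 reads in any library. In YFP- against unstimulated cells 5 rose and 4 fell, in YFP+ against unstimulated 5 rose and 5 fell, and in YFP+ against YFP- 1 was higher and 8 were lower. The median log2 differences were 0.40, -0.45 and -0.68, against 0.14, -0.03 and -0.19 for all genes tested. Il23a, the specific subunit of IL-23, rose from 0.335 ± 0.102 CPM (SD, n = 4) in unstimulated cells to 5.74 ± 1.19 CPM in YFP- and 20.7 ± 1.89 CPM in YFP+ cells, and was also higher in YFP+ than in YFP- by 1.87 (limma adjusted p = 1.2e-04). Stat5a, which carries the IL-2 and IL-15 signals, rose from 9.31 ± 1.35 CPM to 75.8 ± 13.4 and 89.9 ± 10.6 CPM. Cish, a target and inhibitor of STAT5 signalling, rose from 45.0 ± 6.70 to 209 ± 46.5 and 211 ± 60.5 CPM. Jak3, the kinase of the common gamma chain, fell from 67.3 ± 8.93 to 22.8 ± 5.11 and 12.1 ± 3.20 CPM. Ptpn6, the phosphatase SHP-1, rose from 92.2 to 364 CPM in YFP- and stood at 194 CPM in YFP+, lower than in YFP- by -1.01 (limma adjusted p = 0.022). Pias1, a SUMO ligase, was lower in YFP+ than in YFP- by -1.28 (limma adjusted p = 0.043), and by -0.65 with labels f2 and m2 and -1.90 with m3 and m4.

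On the IL-18 receptor side, 15 of 21 further genes were tested, with Il18, Il18bp, Il1r1, Il1rl1, Irak3 and Peli2 below the filter. This list also holds genes of other receptors, such as Il1rap and Il1r2, so its counts and medians are not particular to IL-18. Il18 itself was at 0.868 to 3.09 CPM in unstimulated and at most 0.466 CPM in stimulated libraries. In YFP- cells 5 of the 15 rose and 1 fell, a rising share near that of all genes tested. In YFP+ cells 6 rose and 2 fell, and between the stimulated groups 3 were lower in YFP+ and none higher (at an unadjusted limma p under 0.05, 5 lower and 0 higher). The medians were 0.37, 0.08 and -0.14, near those of all genes in the last 2 comparisons. Il1rap, the accessory chain of the IL-1 and IL-33 receptors, rose from 2.89 ± 0.587 CPM to 12.0 ± 1.88 and 13.9 ± 4.01 CPM. Il1r2, a decoy receptor for IL-1, rose from 2.95 ± 1.57 to 6.96 ± 1.18 and 10.3 ± 2.24 CPM. The YFP- difference of Il1r2 was 1.94 with labels f2 and m2 alone (limma adjusted p = 0.0051) and 0.85 with m3 and m4 alone (limma adjusted p = 0.10). Tab2, an adaptor of the kinase TAK1, fell from 104 ± 15.4 to 64.2 ± 8.86 and 32.5 ± 3.72 CPM, and was lower in YFP+ than in YFP- by -0.98 (limma adjusted p = 3.3e-04). Tab1, another partner of TAK1, rose in YFP- cells by 1.45 (limma adjusted p = 0.022) and stood at 9.61 to 45.7 CPM in YFP+, where the difference from unstimulated was 1.86 with labels f2 and m2 alone (limma adjusted p = 4.4e-05) and 0.19 with m3 and m4 alone (limma adjusted p = 0.64). Peli1, an E3 ligase that acts on IRAK1, was lower in YFP+ than in YFP- by -0.68 (limma adjusted p = 0.0064), and by -0.86 with f2 and m2 alone (limma adjusted p = 0.0076), while with m3 and m4 alone it was -0.50 and did not pass (limma adjusted p = 0.15).

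Below the IL-18 receptor lies the kinase and NF-kappaB relay. Of its 16 genes, 10 rose, 2 fell and 4 did not pass in YFP-, and 9 rose, 3 fell and 4 did not pass in YFP+. Between the stimulated groups 3 were lower in YFP+ and none higher (at an unadjusted limma p under 0.05, 6 lower and 0 higher). The medians were 0.992, 1.095 and -0.212, against 0.14, -0.03 and -0.19 for all genes tested. Gadd45b, which activates the p38 pathway, rose from 9.72 ± 2.11 CPM to 214 ± 25.9 in YFP- and 93.6 ± 6.74 in YFP+. Nfkbia, the NF-kappaB inhibitor, rose from 209 ± 38.0 to 1451 ± 234 and 804 ± 130 CPM. Map2k3, the kinase of p38, rose from 77.1 ± 23.8 to 357 ± 49.6 and 341 ± 149 CPM. Gadd45b, Nfkbia and Nfkbiz were the 3 genes lower in YFP+ than in YFP-, by -1.19, -0.85 and -0.79 (limma adjusted p = 1.6e-04, 0.0023 and 0.016). For Nfkbiz this was -0.75 with f2 and m2 alone (limma adjusted p = 0.038) and -0.83 with m3 and m4 alone, where it did not pass (limma adjusted p = 0.084). Antibody to NK1.1 was the only stimulus named apart from the HD IL-15 shared by all samples, and which receptor these changes follow was not tested.

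The fourth list held 15 genes known to answer IL-12 with IL-18 in NK cells, of which 14 were tested (Il10 had at most 3 reads in any library) and 3, Gadd45b, Gadd45g and Nfkbiz, are also in the relay list. In YFP- cells 13 rose and 0 fell (also 0 at an unadjusted limma p under 0.05), and in YFP+ cells 12 rose and 1 fell. Between the stimulated groups 6 were higher and 3 lower in YFP+. The medians were 3.97, 4.12 and 0.30. Ccl3, a chemokine, rose from 76.4 ± 6.50 CPM to 3770 ± 627 in YFP- and 11371 ± 732 in YFP+. Xcl1, another chemokine of NK cells, rose from 49.1 ± 13.0 to 2375 ± 524 and 6589 ± 1175 CPM. Csf2, the cytokine GM-CSF, had 0 to 6 reads in unstimulated libraries and stood at 13.8 ± 4.68 and 22.1 ± 9.32 CPM in YFP- and YFP+. Ifng was at 3.92 ± 0.239, 45.8 ± 7.37 and 329 ± 18.2 CPM. It carries the reporter used for the sort, so its difference between the stimulated groups is no separate finding. Irf1, a transcription factor, was the gene that fell in YFP+, from 37.9 ± 7.59 CPM in unstimulated and 32.2 ± 5.61 in YFP- to 9.74 ± 5.58 CPM. The list was chosen with earlier results of these data known, so its direction is not independent evidence.

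**Figure D4:**
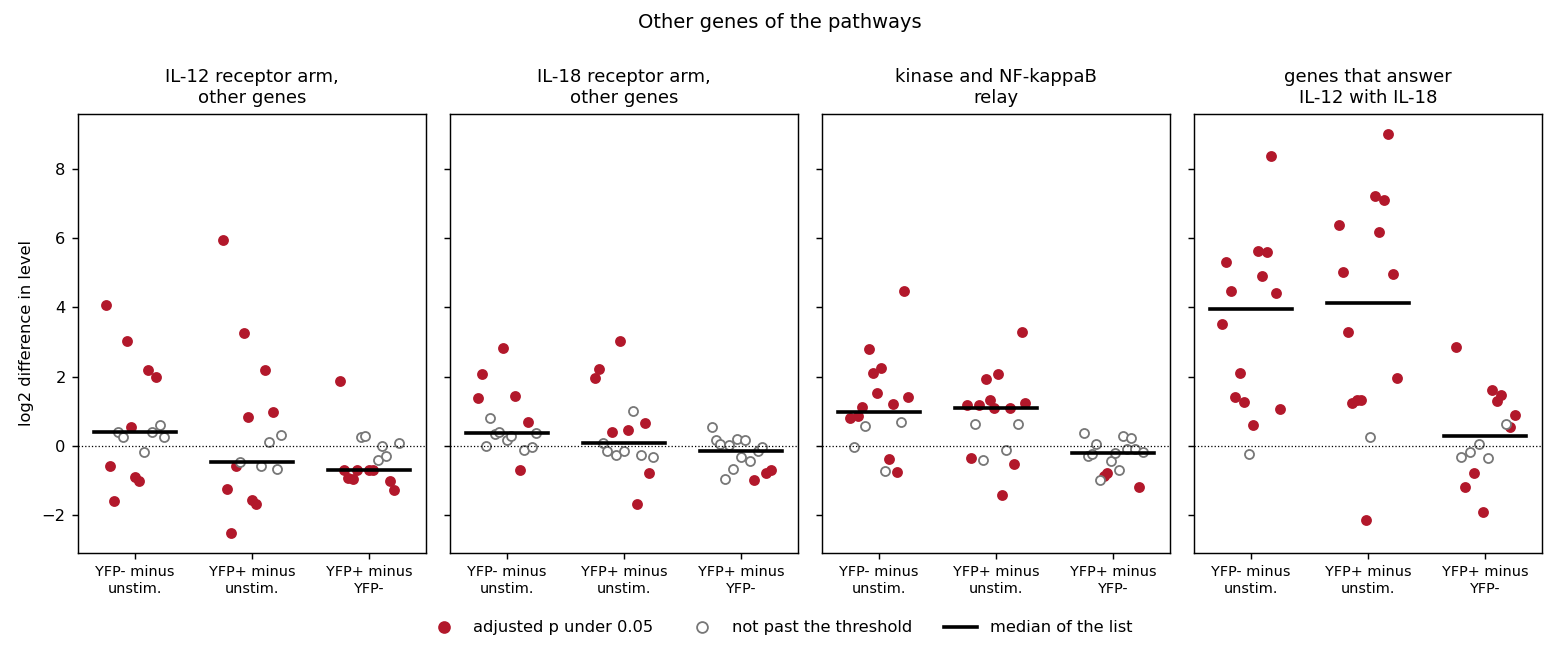
Log2 difference in level (vertical axis) of every tested gene in 4 pathway lists, by comparison (horizontal axis), filled where the limma adjusted p is under 0.05, with a bar at the median of the list. The medians of the genes that answer IL-12 with IL-18 are 3.97, 4.12 and 0.30, and those of the further IL-12 receptor arm genes 0.40, -0.45 and -0.68. The latter list and that of the IL-18 receptor arm also hold genes of other cytokine receptors.

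Genes with the profile most like each receptor gene over the 12 samples were found among 8066 other protein-coding genes by the root mean square difference of centred log2 CPM. For Il18r1 they were Casp6 at 0.127, Lsp1 at 0.132 and Sytl2 at 0.137. Lsp1, an actin-binding protein of leukocytes, went from a mean of 730 CPM in unstimulated to 442 in YFP- and 185 in YFP+ cells. For Il18rap they were Irf2 at 0.129, Utrn at 0.167 and Cc2d1a at 0.184, and Irf2, a transcription factor of the interferon pathway, went from 38.1 to 35.5 and 16.8 CPM. For Il12rb2 they were Mthfsl at 0.135, Prr14l at 0.144 and Nrip1 at 0.151, and for Il12rb1 Sh2d3c at 0.238, Gins3 at 0.256 and Cyp51 at 0.264. The 3 distances for Il12rb1 were larger than those for the other 3 receptor genes.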

How the data were processed

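Bulk RNA-seq of 12 samples was analysed. Per the labels' protocols, SMARTer Ultra Low cDNA libraries were sequenced in paired ends. The submitters' processing notes name bcl2fastq, STAR 2.7.9a, Subread, featureCounts 2.0.3 and GRCm38. The authors deposited moderated log2 CPM, per the file headers, that is the log2 of each library-scaled count with a small prior count added. After 287 repeated lines were dropped, 55487 features were left, and whole reads could be recovered for 100% of values (within 0.05 of a read), which gave library totals. Linear CPM was computed from these reads. There were 0 columns of per-sample values that belonged to no sample. The unit was entered as "other" because the quoted fields of the table could not be read as log2 values by the unit check.

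A joint linear model of the 12 samples, with a mean for each group, was run in limma 3.58.1 under R 4.3.3 with an intensity trend, on the deposited log2 values of 12364 genes above 0 in at least 4 samples. P-values were adjusted by Benjamini-Hochberg over all of them, with a threshold of 0.05. The fit was also run on simulated reads of independent libraries, with a fixed spread and no differences between labels. That run does not cover the label split seen here. Intervals cover the spread between samples, and read floors cover counting error only, since no molecular identifiers are named. Gene positions and exon lengths come from GENCODE M21 on GRCm38, and promoters from RefSeq (GRCm38.p6, 9 of 10 genes matched, all but Il12rb1). The remaining work was done in Python 3.11.15 (pandas 2.3.3, numpy 2.4.6, statsmodels 0.14.6).

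The genes and lists were chosen with earlier results of these data known. Genes named beside the 10 are, per list and comparison, the 3 called genes with the largest difference whose average log2 CPM reached 1, and, per receptor gene, the 3 protein-coding genes with the nearest profile and an average of at least 2. Genes named for a marker list, an overlap or a low level are exceptions chosen after their values were seen. Alternatives were the label as a block, only the 8 samples compared, no filter or one at 2, a pseudocount of 1 CPM, quantile, median and trimmed-mean scaling, totals without 359 ribosomal RNA-like features, a threshold of 0.01 and leaving out each label. A GC and length correction (lowess span 0.3), with and without the block, and fits of labels f2 and m2 or m3 and m4 alone were added after seeing the data.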

Additional observations from a re-analysis of the deposited data

How the results depend on the processing

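None of the 540 values of the 10 genes' differences under 18 alternatives reversed a call. Of these values, 467 kept their side of the threshold, 59 lost it and 14 gained it, and 17 of the 30 differences kept their side throughout. Over all 126 differences of named genes, 2268 values gave 2049, 162 and 57, with 0 reversed. Without the filter on low values, 2 of the 10 genes were called for YFP- minus unstimulated and 3 for YFP+ minus YFP-. Of all 55487 features, 5183 and 1583 were then called in these comparisons. At an adjusted p under 0.01 the 10 genes gave 2, 5 and 3 calls for YFP- minus unstimulated, YFP+ minus unstimulated and YFP+ minus YFP-. Genes called in all were 4636, 6133 and 1466 in that order. Leaving out 1 label gave 2 to 3, 6 to 8 and 3 to 5 of the 10 genes, and 4717 to 6153, 6464 to 7399 and 1571 to 2178 genes in all. For YFP+ minus YFP- the lowest total, 1571, was without m2, and without m4 it was 1643. In that comparison 6 of the 10 genes were lower in the main fit and 5 after quantile normalization. After centring on the median, trimmed-mean scaling or the GC and length correction 4 were lower, and none was higher in any of these. Of all genes tested, 2286 were lower in the main fit and 1430 after quantile normalization. After centring, trimmed-mean scaling and the GC and length correction, 1491, 1671 and 1626 were lower. The share of calls that were higher in YFP+ minus YFP- was 15.1% (405 of 2691), and it was 44.9% after quantile normalization, 50.2% after centring on the median, 37.8% after trimmed-mean scaling and 49.5% after the GC and length correction. For YFP- minus unstimulated it was 59.1%, and 47.1% without ribosomal RNA-like features in the totals, while for YFP+ minus unstimulated it was 45.2% and 36.8% in the same order. The cause of these differences was not tested.

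With the label as a replicate block, 6682, 7774 and 3098 genes were called in the 3 comparisons, and 5, 8 and 6 of the 10 genes, with Il12rb1 added for YFP- minus unstimulated (adjusted p = 0.020). The replicate block with GC and length correction called 7 of the 10 genes for YFP- minus unstimulated. Samples of equal label correlated in their deviations at -0.06 to 0.10, -0.04 to 0.38 and 0.05 to 0.37 in the 3 comparisons. These exceeded 0.1 in 1, 2 and 3 of 4 pairs, and 2, 4 and 6 of 8 samples correlated best with their own label. The labels do not say that equal names mean the same mouse, so they were not treated as pairs in the main fit, and the block is an alternative. These correlations do not settle whether the samples are paired: their mean was 0.03 for YFP- minus unstimulated and 0.24 for YFP+ minus YFP-. With 4 samples per group precision was limited: the narrowest 95% intervals among the 10 genes were those of Tyk2, as for YFP- minus unstimulated, from 0.08 to 0.73.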
